A study of Mus musculus with 9 samples.

Results

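The BCL2 family of cell death and survival genes was followed through CD4 single-positive (SP4) thymocytes sorted by the brightness of a Nur77 reporter. The set was fixed by name and held 10 of the 41978 genes in the expression table: 5 BH3-only genes (*Bcl2l11*, *Bbc3*, *Pmaip1*, *Bmf* and *Bid*), 3 anti-apoptotic genes (*Bcl2*, *Bcl2l1* and *Mcl1*) and 2 effector genes (*Bax* and *Bak1*). All 10 passed the filter on low values and were tested. All samples came from mice carrying the Nur77-eGFP BAC transgene, in which a bacterial artificial chromosome places eGFP under the regulatory region of *Nr4a1*, the gene that encodes Nur77. Live CD25- CD69+ CD24+ CD4+ CD8- thymocytes, a semi-mature SP4 stage, were sorted into the dimmest, a middle and the brightest 10% of GFP (GFPlo, GFPmed and GFPhi), with 10000 cells for each of 3 biological replicates per gate. No cells without the transgene, no added stimulus and no Nr4a-deficient cells were among these 9 samples, and the sources used here do not say whether a mouse gave all 3 gates. The study's methods describe its mice as a whole as juvenile to young adults of both sexes. GFP is an indirect and lasting record of *Nr4a1* transcription, so a gate sums recent signals over some time.

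In the intrinsic death pathway, BH3-only proteins sense stress or signals and bind the anti-apoptotic proteins, which otherwise hold BAX and BAK in check. Once freed, BAX and BAK permeabilise the outer mitochondrial membrane, cytochrome c leaves and caspases are activated. In the thymus, BIM, the product of *Bcl2l11*, is known for its part in the deletion of self-reactive thymocytes, and the abundance of BCL2, BCL-XL and MCL1 sets how much BH3-only protein a cell tolerates.

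The transcript data bear on members that moved in opposite directions, *Bcl2l11* and *Bcl2*, and on *Bbc3*, which encodes PUMA and is often described beside BIM. The sequences around their start sites are shown because FOXO factors, among them *Foxo1* described further on, bind the letters GTAAACA, and 2 of the 16 windows searched, which belong to 9 members with up to 3 start sites each, carried these letters. Each RefSeq window on GRCm38.p6 runs from 250 bases before to 50 after the annotated start, 5′ to 3′ on the strand of the gene, with GTAAACA (or TGTTTAC, the same letters on the opposite strand) in capitals. The *Bcl2l11* window shown, 1 of 2 for this gene, is chr2:128125788-128126087 (plus strand), with the letters 227 bases before the start. The *Bbc3* window shown, 1 of 3, is chr7:16310011-16310310 (plus strand), with the letters 167 bases before the start and on the opposite strand. The other windows of these genes held no match. The *Bcl2* window is chr1:106714241-106714540 (minus strand) and holds no such match.
Bcl2l11: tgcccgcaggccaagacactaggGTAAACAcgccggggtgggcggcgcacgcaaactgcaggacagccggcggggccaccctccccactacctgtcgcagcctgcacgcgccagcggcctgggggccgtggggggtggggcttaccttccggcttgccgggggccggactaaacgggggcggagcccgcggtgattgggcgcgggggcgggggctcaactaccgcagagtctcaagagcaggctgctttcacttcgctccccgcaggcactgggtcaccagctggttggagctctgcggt
Bbc3: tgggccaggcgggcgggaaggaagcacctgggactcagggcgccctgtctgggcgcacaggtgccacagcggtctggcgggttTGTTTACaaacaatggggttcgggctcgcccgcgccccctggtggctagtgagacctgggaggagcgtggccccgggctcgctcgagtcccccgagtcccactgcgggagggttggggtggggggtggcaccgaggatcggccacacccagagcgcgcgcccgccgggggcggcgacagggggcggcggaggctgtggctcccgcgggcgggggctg
Bcl2: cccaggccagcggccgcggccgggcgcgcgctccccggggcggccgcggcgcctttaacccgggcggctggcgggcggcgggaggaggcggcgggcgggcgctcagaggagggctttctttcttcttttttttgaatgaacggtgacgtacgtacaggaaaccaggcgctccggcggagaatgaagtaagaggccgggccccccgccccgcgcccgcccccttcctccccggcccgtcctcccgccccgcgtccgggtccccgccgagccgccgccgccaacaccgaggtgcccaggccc
GTAAACA was found in 3.65% of 32851 RefSeq windows of the same length, searched on both strands. The NBRE, AAAGGTCA, to which Nur77 binds as a monomer, was in 1.51% of all windows and in none of the 16 member windows, and the AP-1 letters TGANTCA were in 7.81% of all windows and in none of the 16. The NFAT core GGAAAA was in 23.4% of all windows and in 3 of the 16, which belong to *Bak1* and *Bcl2l1*. The GC box GGGCGG was in 35.7% of all windows and in 10 of the 16, which belong to 7 members. A match describes letters, and the absence of one says only that the letters are not in these windows. All 3 windows shown were rich in G and C, with 71% for *Bcl2l11*, 74.7% for *Bbc3* and 76% for *Bcl2*.

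Sequencing depth was 7465552 to 14943774 reads in genes per sample. Values are TPM, the usual length-scaled measure of transcript abundance within a library. Because the length in the deposited TPM was, for 98.4% of 41439 genes, the genomic span of the transcripts with introns included, it understates genes with long introns, and comparisons between genes use TPM recomputed on exonic length. Differences between gates were tested gene by gene with limma on log2(TPM + 1), and a gene passed at a difference of at least 1 with an adjusted p of at most 0.05 over 30693 genes tested. With 3 samples a gate, each p-value weighs a difference against the spread between these samples within gates, which limma estimates with help from other genes. *Nr4a1*, the gene the reporter follows, stood at 187 to 251 TPM in GFPlo, 351 to 406 in GFPmed and 767 to 917 in GFPhi. It rose by 1.95 (SE 0.12) from GFPlo to GFPhi, adjusted p = 0.000188. Summed SP4 markers overlapped between the gates, at 7309 to 8697 TPM on exonic length in GFPlo and 7555 to 8305 in GFPhi, with all 8 markers detected. *Trac* is the largest part of that sum, and single markers in it differed: *Cd69*, on which the cells were gated, was lower in GFPhi (98.6 to 125 against 172 to 224, difference -0.79, adjusted p = 0.0142, under the limit of 1), and *Zbtb7b* did not overlap between GFPlo and GFPhi but missed the threshold (-0.72, adjusted p = 0.0739). CD8 or double-positive markers went from 202 to 218 in GFPlo to 88.4 to 110 in GFPhi, with *Cd8a* and *Dntt* lower. *Cd8b1* went from 106 to 108 down to 54.7 to 66.6 (difference -0.79, adjusted p = 0.00646, under the limit of 1). *Rag1* and *Rag2* overlapped between these gates. *Foxp3* and *Il2ra*, markers of regulatory T cells, went from a sum of 11.8 to 12.8 up to 38.1 to 51.3, both higher although CD25, the product of *Il2ra*, was gated out. The thymic epithelial sum went from 9.22 to 18.5 up to 21.6 to 29.1, a change carried by *Epcam* (4.88 to 7.37 in GFPlo, 18.4 to 20.7 in GFPhi), while *Foxn1*, *Psmb11*, *Krt8* and *Aire* overlapped between these gates. The NK, NKT and gamma delta sum went from 39.5 to 43.5 down to 30.1 to 33.8, a change carried by *Sox13* (15.8 to 19.3 in GFPlo, 1.77 to 4.37 in GFPhi), while the other 4 genes of the list overlapped. B cell, myeloid and red cell sums overlapped between GFPlo and GFPhi. The part these shifts have in the results on the BCL2 family was not tested, and in bulk samples fewer cells of a type and less RNA per cell cannot be told apart.

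Between GFPlo and GFPhi, 1 of the 10 members rose (*Bcl2l11*), 1 fell (*Bcl2*) and 8 did not pass. Over all genes tested, 1.26% passed as higher and 0.404% as lower in this comparison. The median difference was -0.04 over the members and -0.09 over all genes. From GFPlo to GFPmed, *Bcl2l11* alone passed, against a background of 0.0554% higher and 0.00326% lower. From GFPmed to GFPhi, *Bcl2l11* again was the only member to pass, against 0.541% higher and 0.15% lower.

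**Figure D1:**
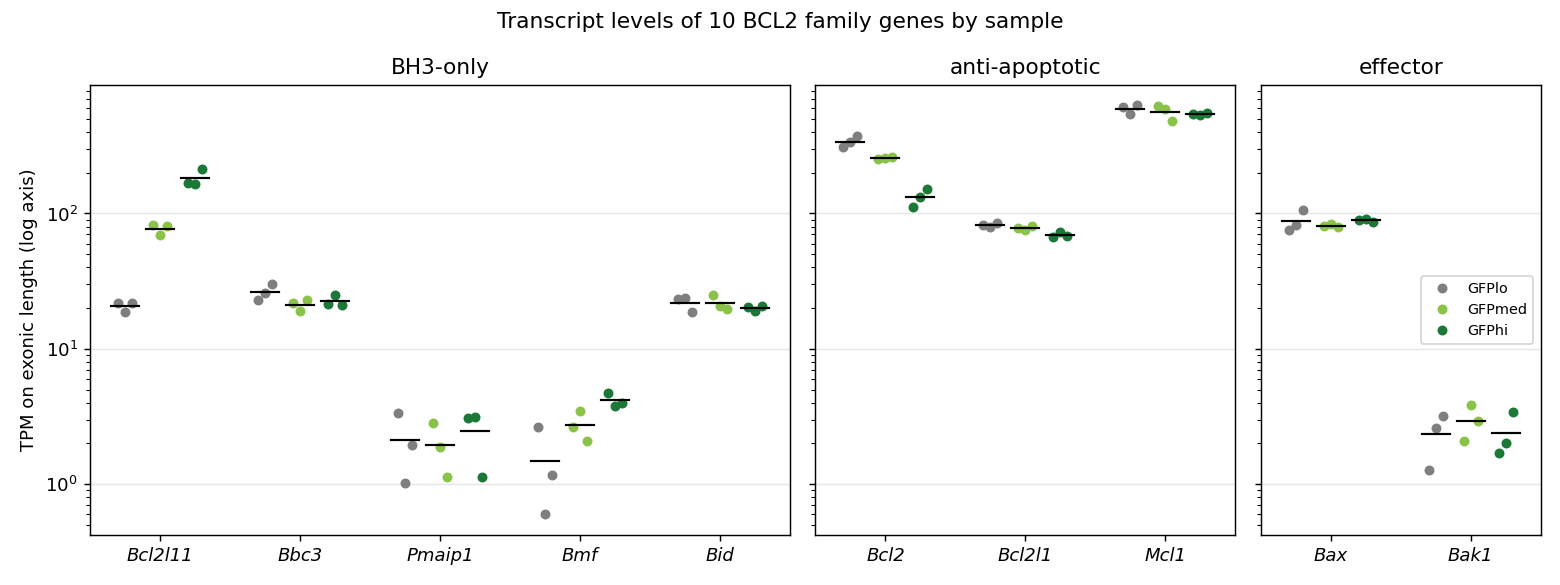
Transcript level of each member in each sample, as TPM on exonic length (log axis), by class; points are the 3 samples of a gate and black lines their means. *Bcl2l11* climbs and *Bcl2* drops across the 3 gates without overlap, *Mcl1* stays the highest member in every gate, and *Pmaip1*, *Bmf* and *Bak1* lie near the floor of the plot.

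Among the BH3-only genes, *Bcl2l11* (BIM; chr2:128126038-128162547, plus strand, GRCm38) showed the largest difference of the 10 members in each comparison. Its deposited TPM was 16.3, 13.9 and 16.2 in GFPlo replicates 1 to 3, then 60.8, 51.3 and 59.8 in GFPmed, then 123, 126 and 156 in GFPhi. The 3 gates did not overlap. The mean in GFPhi was 8.72-fold that in GFPlo and 2.35-fold that in GFPmed, and GFPmed was 3.71-fold GFPlo. On the log2(TPM + 1) scale *Bcl2l11* rose by 3.04 from GFPlo to GFPhi (SE 0.12, 95% interval 2.76 to 3.32, adjusted p = 3.16e-05). It rose by 1.83 from GFPlo to GFPmed (SE 0.12, adjusted p = 0.00559) and by 1.21 from GFPmed to GFPhi (SE 0.12, adjusted p = 0.00408). Of its whole change on this scale, 60.1% was already present in GFPmed. These values rest on 403 to 460 reads per GFPlo sample, 1485 to 2897 per GFPmed sample and 4373 to 4953 per GFPhi sample. The call from GFPlo to GFPmed was lost without GFPmed replicate 3 (1.79, adjusted p = 0.0575). There limma gave 2 of 10 members an unadjusted p of at most 0.05, beside 738 genes higher and 437 lower of 30211 tested. Without replicate 1 of every gate, the set with the highest share of reads on olfactory receptor genes within each gate, the step from GFPlo to GFPmed was 1.82 (adjusted p = 0.209) and that from GFPmed to GFPhi 1.32 (adjusted p = 0.103), while GFPhi against GFPlo still passed.

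The other 4 BH3-only genes did not pass in any of the 3 comparisons. *Bbc3* (PUMA, a target of p53 and FOXO factors; chr7:16308393-16318205, plus strand) ranged from 14.1 to 22.1 TPM over the 9 samples. Its difference from GFPlo to GFPhi was -0.20 (SE 0.14, 95% interval -0.52 to 0.13). *Bid* (chr6:120891930-120916853, minus strand), whose product links death receptors to mitochondria once cleaved by caspase-8, ranged from 7.53 to 10.1 TPM. Its difference was -0.10 (SE 0.16, interval -0.47 to 0.26). Both sets of values overlapped between GFPlo and GFPhi, and both intervals leave out a change as large as 1 in either direction. *Pmaip1* (NOXA, which binds MCL1; chr18:66458533-66465565, plus strand) was counted with only 7 to 34 reads per sample, and its interval, -0.71 to 0.99 around 0.14, is wide.

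*Bmf* (chr2:118528757-118549687, minus strand), whose protein binds the cytoskeleton and is released on loss of anchorage or cytokine, stood at 1.94, 0.437 and 0.847 TPM in GFPlo. It was 1.92, 2.55 and 1.51 in GFPmed and 3.43, 2.80 and 2.88 in GFPhi. GFPhi lay above both other gates without overlap, whereas GFPlo and GFPmed overlapped. The difference from GFPlo to GFPhi was 1.02 (SE 0.30, interval 0.33 to 1.71) and missed the threshold (adjusted p = 0.136). It passed when limma-voom was run on whole reads, at 1.80 (SE 0.45, adjusted p = 0.0179). Only 9 to 91 reads per sample were assigned to *Bmf*. Olfactory and vomeronasal receptor genes, which T cells are not known to use, had a median of 1.17 TPM on exonic length over 1254 genes and a 95th percentile of 6.82, and *Bmf*, *Pmaip1* and *Bak1* lay within that range in every gate. At these levels a change of the member and a change of background reads cannot be told apart.

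**Figure D2:**
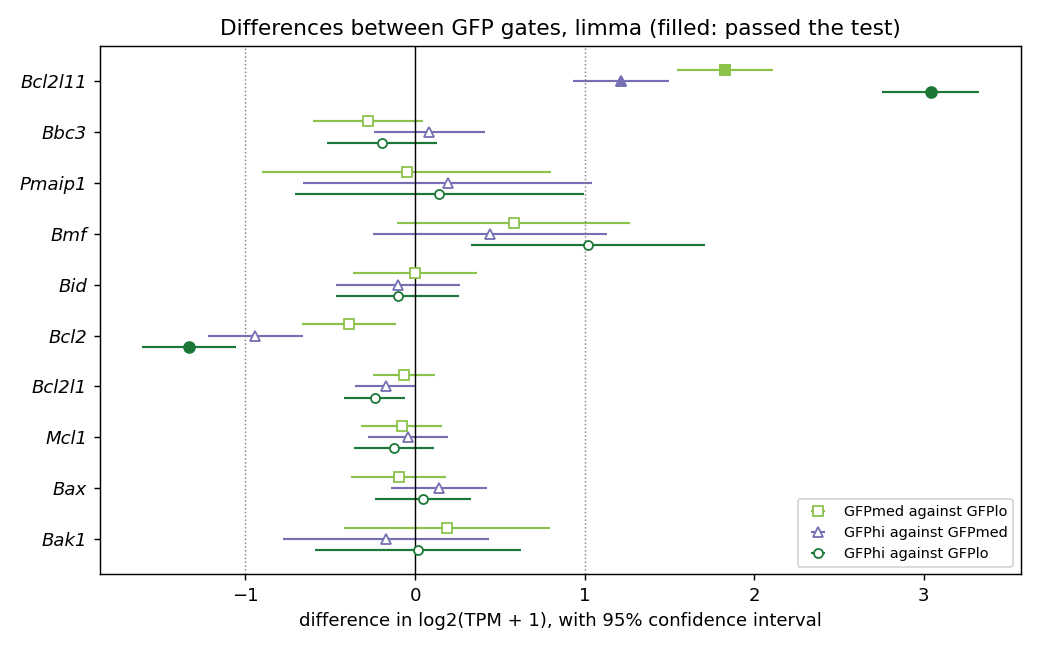
Difference in log2(TPM + 1) between gates for each member (x axis) with its 95% confidence interval from limma; symbols mark the 3 comparisons, filled ones passed the test and dotted lines mark differences of -1 and 1. *Bcl2l11* is right of 1 in all 3 comparisons, *Bcl2* is left of -1 only in GFPhi against GFPlo, and the intervals of *Bmf*, *Pmaip1* and *Bak1* are the widest.

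Of the anti-apoptotic genes, *Bcl2* (chr1:106538178-106714274, minus strand), the founding member of the family and a survival factor of mature T cells, fell. Its deposited TPM was 55.8, 60.1 and 66.5 in GFPlo, 45.3, 46.4 and 46.5 in GFPmed, and 19.9, 24.0 and 27.1 in GFPhi. The 3 gates again did not overlap, in the reverse order of *Bcl2l11*. The mean in GFPlo was 2.57-fold that in GFPhi. The difference from GFPlo to GFPhi was -1.33 (SE 0.12, interval -1.61 to -1.05, adjusted p = 0.00107). From GFPlo to GFPmed it was -0.39 (SE 0.12, adjusted p = 0.790) and did not pass. From GFPmed to GFPhi it was -0.94 (SE 0.12, adjusted p = 0.0109), past the p threshold and just short of the size of 1. Only 29.2% of its change was present in GFPmed, where *Bcl2l11* had 60.1% of its own. Whether these shares differ was not tested.

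The exons of *Bcl2* overlap those of D630008O14Rik, a gene on the opposite strand, over 558 bases or 6.09% of the exonic length, and the library kit does not keep strand. D630008O14Rik fell too, by 1.26 on the log2 scale from GFPlo to GFPhi (SE 0.11, adjusted p = 0.00088), with 1159 to 1481 reads in GFPlo and 645 to 752 in GFPhi. Reads in the shared stretch cannot be assigned by strand. *Bcl2* itself held 6535 to 8911 reads per GFPlo sample and 3744 to 4072 per GFPhi sample.

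*Bcl2l1* (BCL-XL, the survival protein typical of double-positive thymocytes; chr2:152780668-152831728, minus strand) differed little between gates. Its TPM was 37.5, 36.1 and 38.8 in GFPlo, 35.6, 34.7 and 37.0 in GFPmed, and 30.5, 33.7 and 30.7 in GFPhi. Every GFPhi sample was below every sample of both other gates, but the difference from GFPlo was only -0.24 (SE 0.08, interval -0.42 to -0.06, adjusted p = 0.191). *Mcl1* (chr3:95658788-95663176, plus strand), a short-lived protein that T cells need throughout their life, was the most abundant member at 900 to 1182 TPM. Its gates overlapped, with a difference of -0.12 from GFPlo to GFPhi (SE 0.10, interval -0.36 to 0.11).

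Neither effector gene passed. *Bax* (chr7:45461697-45466898, minus strand) stood at 58.1, 63.6 and 82.4 TPM in GFPlo, 62.8, 64.8 and 61.0 in GFPmed, and 69.3, 71.7 and 67.3 in GFPhi. GFPlo replicate 3 was the highest of the 9 samples and the other 2 GFPlo samples were below all GFPhi samples. The difference from GFPlo to GFPhi was 0.04 (SE 0.12, interval -0.24 to 0.33). *Bak1* (chr17:27019810-27029009, minus strand) was at 0.616 to 1.85 TPM with 7 to 25 reads per sample, and its interval was -0.59 to 0.63 around 0.02. Exons of other genes overlap those of *Bid* (*Bcl2l13*, 17.7% of the exonic length), *Bax* (Gm45808, 12.2%) and *Bak1* (*Ggnbp1*, 18.2%).

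An ordered trend across the 3 gates was tested for each member by an exact permutation test, two-sided, over all arrangements of the 9 samples, for which the smallest possible p is 0.00119. *Bcl2l11* (up) and *Bcl2* (down) both reached this smallest value, which is 0.0469 after adjustment over all 30693 genes. *Bcl2l1* (down) gave an exact p = 0.00238 (adjusted 0.0664) and *Bmf* (up) an exact p = 0.00595 (adjusted 0.104). The other 6 members gave exact p-values from 0.201 to 0.949. Over all genes, 7.14% had an upward and 7.85% a downward trend at an unadjusted p of at most 0.05. The trend of *Bcl2l1* was lost when samples were rescaled by median-of-ratios factors (exact permutation p = 0.144). *Bcl2l11* was the 1 member whose 3 gates rose in order without overlap, against 1.67% of all genes, and *Bcl2* the 1 member whose gates fell in order, against 0.87%.

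On exonic length, the order of the levels changed between gates. In GFPlo, *Mcl1* (595 ± 42.8 TPM, SD, n = 3) was followed by *Bcl2* (340 ± 30.4), then *Bax* (87.7 ± 16.5) and *Bcl2l1* (82.2 ± 3.11), whose ranges overlapped. *Bbc3* (26.2 ± 3.55), *Bid* (21.9 ± 2.74) and *Bcl2l11* (20.9 ± 1.86) came next, each overlapping the next in order. In GFPmed, *Bcl2l11* had moved up to 77.3 ± 6.98, a range shared with *Bax* (80.9 ± 2.25) and *Bcl2l1* (78.4 ± 2.79), while *Bcl2* was still second at 257 ± 4.56. In GFPhi, *Bcl2l11* at 181 ± 25.9 was second to *Mcl1* (544 ± 12.9), above *Bcl2* at 132 ± 20.2, with no overlap between neighbours from *Mcl1* down to *Bmf*. *Bak1*, *Pmaip1* and *Bmf* were the lowest members in all gates.

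The ratio of *Bcl2l11* to *Bcl2* on exonic length was 0.062 ± 0.008 in GFPlo, 0.301 ± 0.030 in GFPmed and 1.38 ± 0.113 in GFPhi (SD, n = 3 each). It was thus 22.4-fold higher in GFPhi than in GFPlo, and above 1 only in GFPhi. Where the ratio crosses 1 depends on the length used. On the longest annotated transcript it was 0.077, 0.376 and 1.73, whereas on the deposited TPM it was 0.255, 1.25 and 5.72 and was above 1 already in GFPmed. The length behind the deposited TPM of *Bcl2* was 89469 bases, 9.77 times its exonic length, and that of *Bcl2l11* 18953.6 bases, 2.36 times. A change of length multiplies the ratio of every sample by the same factor, so it cannot alter the order of the gates or the fold between them.

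**Figure D3:**
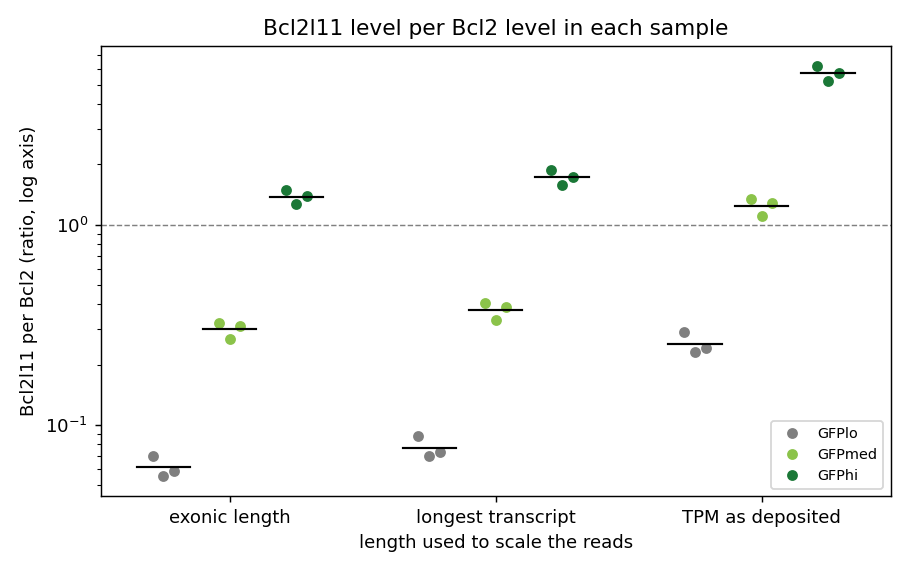
Level of *Bcl2l11* divided by that of *Bcl2* in each sample (log axis) under 3 choices of gene length; points are samples, black lines the means of 3, and the dashed line equal levels. GFPhi lies above equality in every choice, while GFPmed lies below it on exonic length (0.301) and above it on the deposited TPM (1.25).

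Summed by class on exonic length, BH3-only transcripts went from 72.5 ± 2.42 TPM in GFPlo to 125 ± 9.93 in GFPmed and 231 ± 24.0 in GFPhi. Without *Bcl2l11* the sum was 51.7 ± 0.577, 47.7 ± 3.91 and 49.3 ± 1.97. *Bcl2l11* made up 28.7% of the BH3-only sum in GFPlo, 61.8% in GFPmed and 78.5% in GFPhi. Anti-apoptotic transcripts went from 1017 ± 63.7 to 900 ± 68.8 and 745 ± 26.0. The share of *Bcl2* in that sum was 33.4%, 28.7% and 17.7%, and that of *Mcl1* 58.5%, 62.6% and 73.0%. Effector transcripts stood at 90.0 ± 17.4, 83.8 ± 2.91 and 91.6 ± 1.04. The BH3-only sum per anti-apoptotic sum was 0.071, 0.139 and 0.309, a 4.33-fold difference between GFPhi and GFPlo, so even in GFPhi the anti-apoptotic transcripts outnumbered the BH3-only ones. These sums cover only the 10 members and leave out the relatives described below, among them anti-apoptotic genes that rose. They are descriptions of transcript levels and carry no test.

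**Figure D4:**
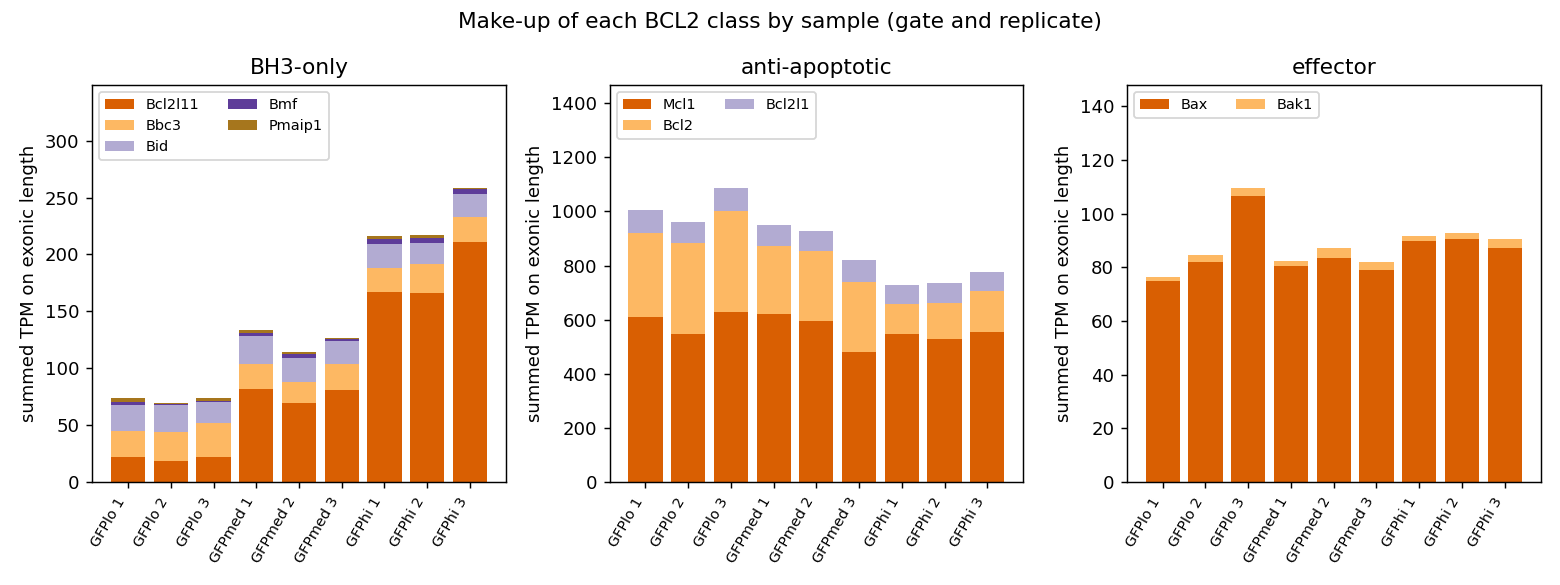
Stacked levels of the members of each class in each of the 9 samples (TPM on exonic length, bars from 0, each panel with its own scale). The growth of the BH3-only bars is *Bcl2l11*, from 28.7% to 78.5% of the bar, and the *Bcl2* segment of the anti-apoptotic bars shrinks from 33.4% to 17.7%.

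The rest of the family was read from a list of 17 further BCL2 relatives, of which 16 were in the table and 12 were tested. From GFPlo to GFPhi, 2 rose, none fell and the median difference was 0.10. Both that rose encode forms of A1, an anti-apoptotic protein induced by antigen receptor and NF-kB signals. *Bcl2a1d* was 2.57, 1.78 and 2.94 TPM in GFPlo, 4.01, 4.33 and 4.95 in GFPmed, and 10.3 to 12.6 in GFPhi, without overlap. It rose by 1.85 (SE 0.20, adjusted p = 0.00256). On exonic length its means were 13.9, 25.3 and 64.4 TPM in GFPlo, GFPmed and GFPhi, beside 69.2 for *Bcl2l1* in GFPhi. *Bcl2a1b* rose by 1.13 (SE 0.21, adjusted p = 0.0268) with 3 to 41 reads per sample. The A1 genes are near-identical copies, so the read count and level of each copy are uncertain. *Bcl2a1a*, *Bik*, *Hrk* and *Bcl2l14* were in the table but too low to be tested.

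Downstream of the mitochondria, 17 genes of the pathway were tested and 1 passed. *Birc5* (survivin, a mitotic protein of the IAP family) was 3.55, 4.37 and 4.14 TPM in GFPlo, 11.8, 7.29 and 9.93 in GFPmed, and 15.0, 30.2 and 22.1 in GFPhi, and rose by 2.17 (SE 0.27, adjusted p = 0.00484). With no limit on size, *Birc3*, which encodes cIAP2, was also higher (0.83, adjusted p = 0.00203), and *Vdac1*, a channel of the outer mitochondrial membrane, was lower (-0.53, adjusted p = 0.0129). The caspases of the list, *Apaf1* and *Cycs* did not pass. The median of the 17 was 0.12. With no limit on size, 2.38% of all genes passed as higher and 1.51% as lower, or 730 and 464 genes, a split that became 472 and 131 after median-of-ratios scaling. No member other than *Bcl2l11* and *Bcl2* passed on these terms.

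Of 14 genes of the death receptor pathway, 1 passed. *Tnfrsf1b*, which encodes TNFR2, a TNF receptor without a death domain, was 10.2, 9.82 and 10.9 TPM in GFPlo, 17.5, 17.4 and 19.4 in GFPmed, and 74.6, 76.3 and 76.4 in GFPhi. It rose by 2.77 (SE 0.09, adjusted p = 9.95e-06). With no limit on size, *Fas* was higher (0.76, adjusted p = 0.0175) and *Tnfrsf1a*, the TNF receptor that does carry a death domain, was lower (-0.58, adjusted p = 0.0294). *Fasl* missed the threshold (1.31, adjusted p = 0.0534).

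Of 16 listed regulators of BCL2 family genes and proteins, 14 were tested and 2 rose. *Trp73* and *Acoxl*, the gene next to *Bcl2l11*, did not pass the filter on deposited TPM. On exonic length *Acoxl* was 1.69 to 5.36 TPM in GFPlo, 5.90 to 7.54 in GFPmed and 8.52 to 12.6 in GFPhi, with 14 to 119 reads per sample. *Trp73* overlapped between the gates. *Gadd45b*, a stress-induced activator of p38 and JNK signalling, was 16.6, 22.5 and 22.8 TPM in GFPlo, 57.2, 58.7 and 65.6 in GFPmed, and 116, 148 and 135 in GFPhi. It rose by 2.64 (SE 0.14, adjusted p = 0.000112), and like *Bcl2l11* it also passed from GFPlo to GFPmed (1.52, adjusted p = 0.0224) and from GFPmed to GFPhi (1.12, adjusted p = 0.0111). *Tsc22d3* (GILZ, a glucocorticoid-induced protein) rose by 1.12 (SE 0.19, adjusted p = 0.0173). With no limit on size, *Foxo1*, a factor of the FOXO family, was higher (0.90, adjusted p = 0.00815). *Foxo3* (0.22, adjusted p = 0.675) and *Trp53* (-0.30, adjusted p = 0.101) did not pass.

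**Figure D5:**
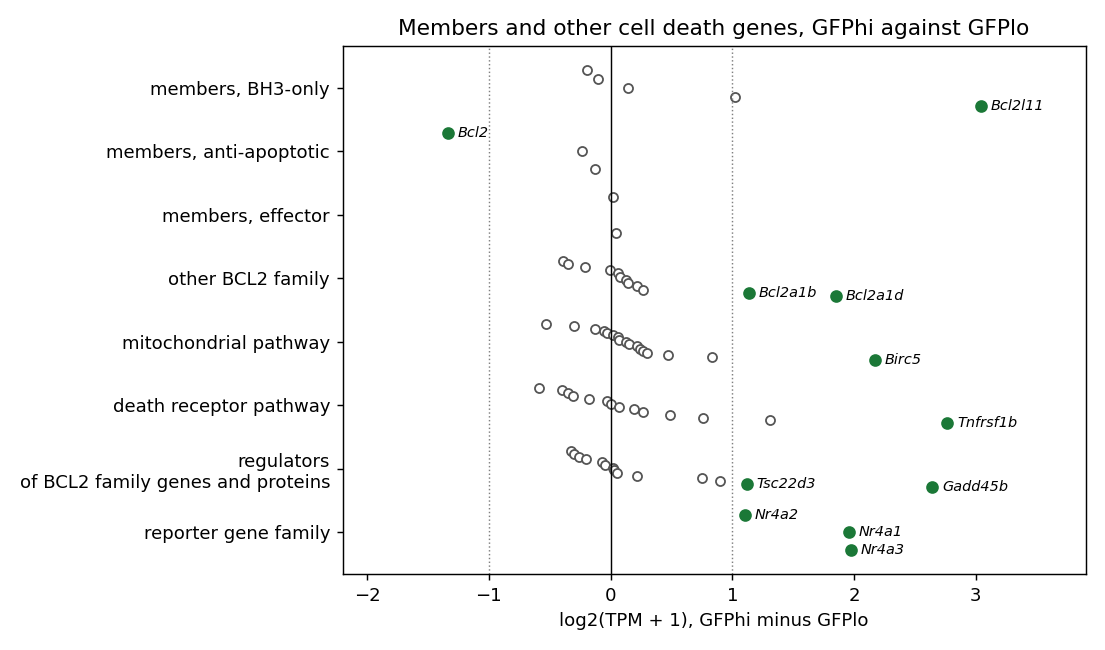
Difference in log2(TPM + 1) between GFPhi and GFPlo (x axis) for the members, 4 other lists of genes and the *Nr4a* genes; each point is a gene, filled and named where it passed, and dotted lines mark -1 and 1. *Bcl2l11* at 3.04 lies furthest right of all genes drawn, ahead of *Tnfrsf1b* at 2.77 and *Gadd45b* at 2.64, and *Bcl2* is the only gene drawn that passed as lower.

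Among all 30693 tested genes, those whose log2(TPM + 1) over the 9 samples was most like that of *Bcl2l11* were *Itih5* (Pearson r = 0.993), *Gimap7* (0.988), *Tnfrsf4* (0.987), *Gimap3* (0.985) and *Gadd45b* (0.985). Those most like *Bcl2* were Gm17509 (0.993), *Psd4* (0.992), Gm50169 (0.992), *Trat1* (0.991) and *Smim15* (0.990). *Bcl2l11* and *Bcl2* themselves gave r = -0.904. These coefficients describe 9 samples that fall into 3 gates and carry no test.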

How the data were processed

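RNA of sorted thymocytes was made into cDNA with SMART-seq v4 and libraries with NexteraXT, which does not keep strand. Per the study's methods, the authors trimmed paired reads, aligned them with STAR 2.7.11b to GRCm38 with GENCODE vM25, dropped identical duplicate reads, tallied the rest by gene with STAR and deposited TPM per sample, beside a mean signal of normalized counts per gate made with DESeq2 1.34.0. Deposited columns of the authors' own comparisons (fold changes, adjusted p-values and significance marks) were not used. The whole reads behind the TPM were solved from the deposited TPM and the gate means for 41578 of 41978 genes (400 could not be solved). All solved values under 2000 reads were whole within 0.02. TPM on exonic length divides these reads by the union of GENCODE vM21 exons, same build.

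limma 3.58.1 (R 4.3.3) was fitted to log2(TPM + 1) of all 9 samples, with a trend in the prior variance, keeping genes that reached a TPM of 1 in 3 or more samples. A fold on this scale understates the change of low genes. p-values were adjusted by the Benjamini-Hochberg method over all 30693 genes tested. A simulation with known changes, built on the means and spread of these reads, was also run through the fit. Its outcome is not reported here. Groups follow the labels, and labels name 3 samples per gate. Alternatives were other pseudocounts, filters, scalings, tools, leaving out each sample, and a replicate block. The rule for named genes took the 10 members, every gene of the other lists that passed, *Nr4a1*, genes that overlap or copy a member, and the 5 genes most like *Bcl2l11* and the 5 most like *Bcl2*. *Birc3*, *Vdac1*, *Fas*, *Tnfrsf1a*, *Fasl*, *Foxo1*, *Foxo3*, *Trp53*, *Apaf1*, *Cycs*, *Trp73* and *Acoxl* fall outside it and were named after their values were seen. So do the cell type markers named without having passed. The members and lists were chosen with earlier results of these data known. The promoter search covered 9 members, and the tenth window is not reported here.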

Additional observations from a re-analysis of the deposited data

How the results depend on the processing

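The number of members that passed from GFPlo to GFPhi was 2 in all settings but limma-voom, where *Bmf* made it 3 with library totals and 3 with recovered size factors (1.84, adjusted p = 0.00288, a setting added after seeing the data). From GFPlo to GFPmed the number was 1, and 0 to 1 when samples were left out, with 0 without GFPmed replicate 3 and 0 without replicate 1 of every gate. Here limma left 2 and 3 members at an unadjusted p of at most 0.05. In the first setting 738 genes higher and 437 lower of 30211 were at this level. In the second they were 930 and 531 of 27654. From GFPmed to GFPhi the number of members that passed was 1, and 0 to 2 when samples were left out. It was 2 without GFPhi replicate 3, where *Bcl2* passed (-1.04, adjusted p = 0.0208), and 2 with no limit on size, where *Bcl2* passed at -0.94. It was 0 without replicate 1 of every gate. There limma left 2 members at an unadjusted p of at most 0.05, beside 1321 genes higher and 1844 lower of 27654 tested. The omission of replicate 1 was chosen after seeing the data. It leaves 2 samples per gate and fewer degrees of freedom. The number with an ordered trend was 4, and 3 to 5 in other settings: *Bcl2l1* was lost under median-of-ratios scaling, and *Bax* gained (exact permutation p = 0.0125) without GFPlo replicate 3. Of 791 values of single members under alternatives, 782 kept their result, whether passed or not, 4 lost a call and 5 gained one. Most of the 791 values had no call to lose. Signs changed in 34 of them, all of *Bak1*, *Bax*, *Bid*, *Mcl1* or *Pmaip1*, none of which passed the test on gate differences in any setting. By the rule used here the replicate numbers were not treated as pairs, since not every same-numbered pair correlated above 0.1. The 9 pairs lay between 0.0122 and 0.225 (mean 0.0609), all positive, against a mean of -0.0305 over the 18 pairs with different numbers. Correlations were taken on deviations from gate means. The mean over different numbers is therefore tied to that over same numbers and is no separate comparison. The rule on 0.1 cannot exclude that same-numbered samples belong together, so the main fit may leave out a real pairing. With the replicate block, the members that passed numbered 2, 1 and 1 for GFPhi against GFPlo, GFPmed against GFPlo and GFPhi against GFPmed, and the smallest trend p within blocks, 0.00926 over 216 arrangements, was reached by *Bcl2l11*, *Bcl2* and *Bcl2l1* in an exact permutation test. Not every sample correlated best with its own number, and the block moved the count of all genes higher from GFPlo to GFPmed from 17 to 5. Over all settings the genes higher numbered 155 to 571 (387 as reported) from GFPlo to GFPhi, 0 to 25 (17) from GFPlo to GFPmed and 13 to 294 (166) from GFPmed to GFPhi, and those lower 49 to 170 (124), 0 to 4 (1) and 8 to 77 (46). The lowest of each came without replicate 1 of every gate. Run on the reads with totals as library sizes, limma-voom called 489 higher and 144 lower from GFPlo to GFPhi. Depth limits *Bmf*, *Pmaip1* and *Bak1*, with at most 91 reads per sample.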
